A study of Mus musculus with 32 samples.

Results

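The regions described here are 764 stretches of open chromatin that stood among the stronger peaks of mouse haematopoietic stem and progenitor cells after PBS and mostly not after LPS, and they are called PBS-biased regions below. They were chosen by their peak pattern. The 16 peak lists were brought to 1 common length, the number of autosomal peaks in the shortest list (19448 peaks in all), by keeping the autosomal peaks with the highest -log10 p of the authors. Overlapping peaks were merged over all lists, and a merged region was kept if at least 6 of the 8 PBS lists and at most 2 of the 8 LPS lists held a peak. This gave 764 of 31846 merged regions (2.4%), or 3.24% of the 23554 regions that 3 or more lists shared, which are called tested regions. Because the choice used the LPS and PBS lists themselves, the difference between both treatments at these regions is given as a description, with no test.

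Accessibility was measured by ATAC-seq, in which a transposase cuts open DNA, in lineage-negative, cKit-positive, Sca1-positive bone marrow cells, a fraction that holds stem cells and early progenitors. In AF9-experienced mice, lethally irradiated C57BL/6J recipients had received 200000 marrow cells homozygous for hMLL-AF9, a doxycycline-inducible leukaemia fusion gene, and for its inducer rtTA, together with 800000 wild-type CD45.1+/2+ marrow cells. In naive mice the smaller graft carried homozygous rtTA and no hMLL-AF9. Both had 6 to 8 weeks after the transplant, 5 weeks of doxycycline and 4 weeks without it, and were then injected with LPS, a bacterial lipopolysaccharide, or with PBS, 24 hours before the wild-type CD45.1+/2+ cells were sorted. There were 5 AF9-experienced LPS, 3 naive LPS, 4 AF9-experienced PBS and 4 naive PBS replicates, each with 1 peak list made from 2 technical libraries. The sorted cells did not carry the fusion gene, so AF9 experience here means past exposure of wild-type cells in the same mouse. Per the labels, tagmentation followed Omni-ATAC, while a chemistry for single-cell libraries is also named. They do not say whether replicates were separate mice, so p-values measure only the spread between these samples.

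Stem and progenitor cells sense LPS through Toll-like receptor 4 and through cytokines of other cells, and inflammatory signals are known to push them towards myeloid output at the expense of lymphoid output. Transcription factors of the TCF/LEF, Notch and E protein pathways act in early lymphoid and stem cell programs. Open regions away from promoters are often enhancers, but an open region does not show that a gene nearby is active, and genes are named below by position only.

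Promoters show what kind of DNA lay under those regions that reached a start site. The table of RefSeq promoters (GRCm38.p6) gave windows from 250 bases before to 50 after a start site. Of these, 84 windows of 78 genes overlapped 71 PBS-biased regions. Of these, 3 are printed as the 250 bases before the start, 5′ to 3′ on the gene's strand, with every CpG in capitals. They were picked after their values were seen, and show the strongest such region by mean PBS rank, a CpG-poor promoter and a CpG-rich promoter.
Kcnh2: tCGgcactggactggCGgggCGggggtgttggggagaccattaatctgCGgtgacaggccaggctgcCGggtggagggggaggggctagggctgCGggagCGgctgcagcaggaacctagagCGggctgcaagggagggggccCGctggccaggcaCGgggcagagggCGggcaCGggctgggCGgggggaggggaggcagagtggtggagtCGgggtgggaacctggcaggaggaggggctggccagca
Robo4: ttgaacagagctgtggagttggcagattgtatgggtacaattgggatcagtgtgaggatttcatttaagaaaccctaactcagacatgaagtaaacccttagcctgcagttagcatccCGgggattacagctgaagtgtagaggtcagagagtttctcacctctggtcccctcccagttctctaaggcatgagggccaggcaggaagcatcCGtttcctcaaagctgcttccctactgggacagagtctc
Vegfc: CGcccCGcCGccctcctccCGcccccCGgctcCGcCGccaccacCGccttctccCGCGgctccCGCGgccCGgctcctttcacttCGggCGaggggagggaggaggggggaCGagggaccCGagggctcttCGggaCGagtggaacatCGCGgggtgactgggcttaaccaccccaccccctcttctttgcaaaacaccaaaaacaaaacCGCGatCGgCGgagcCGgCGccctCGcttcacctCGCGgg
Kcnh2 encodes a voltage-gated potassium channel, and its printed bases are chr5:24329592-24329841 on the minus strand, with 14 CpG. Robo4 encodes a guidance receptor of endothelial and stem cells (chr9:37401722-37401971, plus strand), with 2 CpG. Vegfc encodes a growth factor of lymphatic vessels (chr8:54077282-54077531, plus strand), with 30 CpG. The regions over these promoters had peaks in 2, 0 and 1 LPS lists, against 7, 6 and 7 PBS lists, in the order Kcnh2, Robo4, Vegfc. No sequence of regions without a promoter window was used here.

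Each region was given, per library, a percentile rank: the place of its highest peak in the shortened list, from 100 at the top to 0 where that list held no peak. Over the PBS-biased regions the median of the mean rank was 1.2 in LPS libraries and 16.9 in PBS libraries (quartiles 12.4 and 23.6). They were thus weak members of the PBS lists: 488 of 764 had a mean PBS rank under 20 and 24 reached 40, while regions with a peak in all 16 lists had a median PBS rank of 70.5. The LPS minus PBS difference had a median of -15.2 percentile points and ran from -52.9 to 0.238, so at least 1 region met the rule without a lower mean rank after LPS.

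The number of PBS-biased regions with a peak in the shortened list was 98, 82, 111, 126 and 172 in the AF9-experienced LPS libraries and 71, 80 and 79 in the naive LPS libraries. It was 490, 686, 729 and 728 in the AF9-experienced PBS libraries and 306, 689, 746 and 711 in the naive PBS libraries. The treatments did not overlap in this count, as the rule requires for most regions, and the first library of each PBS group was the lowest there. Those were also the shortest lists, with 25685 and 19448 peaks, against 60841 to 88816 in the other lists except naive LPS 3 with 39464. Of the 386 regions in just 6 PBS lists, 179 were missing from both of these short PBS lists. Another 255 regions were in 7 PBS lists and 123 in 8, while 243 were in no LPS list, 223 in 1 and 298 in 2.

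**Figure D1:**
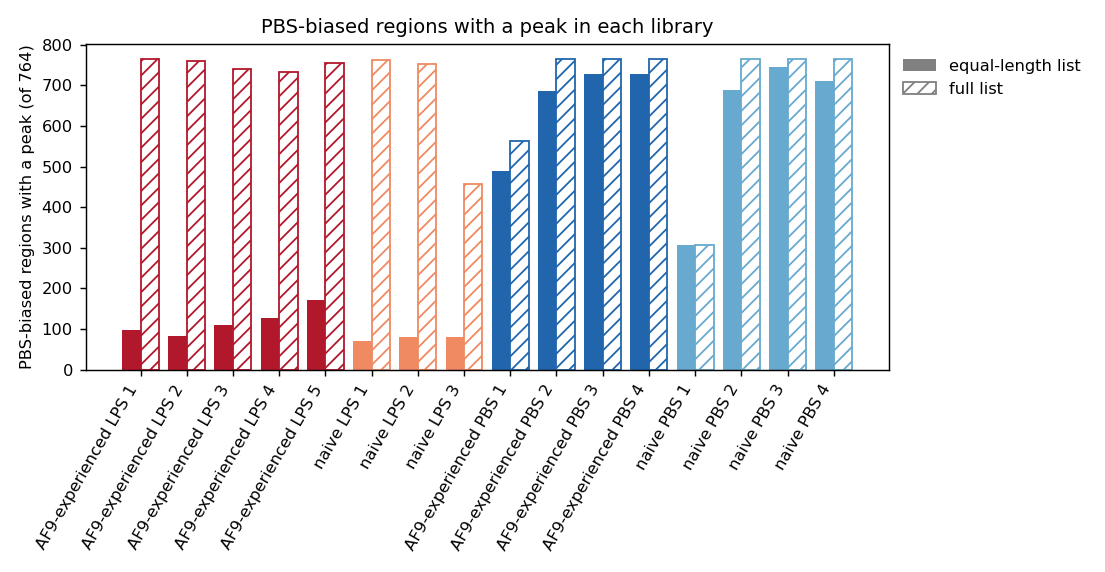
Number of the 764 PBS-biased regions with a peak in each library, in the equal-length list (filled) and in the authors' full list (hatched); colours mark the 4 groups. The filled bars reach 71 to 172 in LPS libraries and 306 to 746 in PBS libraries, while the hatched bars of 7 of 8 LPS libraries lie between 734 and 764.

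In the authors' full lists these regions were not lost after LPS. A peak was present at 764, 760, 741, 734 and 755 of them in the AF9-experienced LPS libraries and at 763, 753 and 457 in the naive LPS libraries. In the PBS libraries it was present at 563, 764, 764 and 764 (AF9-experienced) and 306, 764, 764 and 764 (naive). All 8 full LPS lists held a peak at 436 regions, at least 6 held one at 754, and no region had a peak in 2 or fewer. The pattern was one of rank within a list: in the full lists a peak was present after LPS as well.

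Fold enrichment is the authors' ratio of a peak to its local background. Regions chosen for their absence from the shortened LPS lists are bound to have a lower fold relative to those lists, so the values are a description. The median fold of the peaks at PBS-biased regions, divided by the median fold of the same library's shortened list, was 0.587 to 0.675 in the 8 LPS libraries and 0.827 to 0.973 in the 8 PBS libraries. The shortened lists themselves overlapped between treatments. Their median fold was 6.58 to 13.6 (median 10.2) in LPS libraries and 5.07 to 19.4 (median 17.1) in PBS libraries, and the -log10 p of the weakest peak kept was 9.67 to 42.8 (median 24.8) in LPS libraries and 3.89 to 130 (median 77.5) in PBS libraries. The lowest PBS values of both measures were those of the 2 short PBS lists, and the other 6 PBS libraries, at 13.9 to 19.4 and 51.6 to 130, lay above all LPS libraries. The part of these list differences in the choice of regions was not tested. Of the chromosome Y peaks, 5 of 8 LPS libraries had 2 or 3 and PBS libraries had 0 or 1, and their part in the result was not tested.

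Membership hung on the ranking and on the list length. Ranked by fold enrichment, the same rule gave 1470 regions, of which 222 of the 764 (29.1%) remained. With lists of 50% of that length it gave 261 regions and with full lists 4361, and none of the 764 was among either. For full lists this was fixed in advance, as none of the 764 had a peak in 2 or fewer full LPS lists. For the 50% lists it was nearly so. A rank above 50 was needed in 6 PBS lists, while the median mean PBS rank was 16.9. With the threshold kept at 6 PBS lists, the rule left 444, 411 and 408 regions without AF9-experienced PBS 2, 3 or 4. It left 443, 393 and 426 without naive PBS 2, 3 or 4. Part of this fall is built in. Of the 764 regions, 386 were in just 6 PBS lists, and such a region drops out when any of these lists is left out. Without the 3 shortest lists, and with the rule scaled to at least 5 of 6 PBS and at most 1 of 7 LPS lists, 636 regions were kept, and 492 of the 764 were among them.

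**Figure D2:**
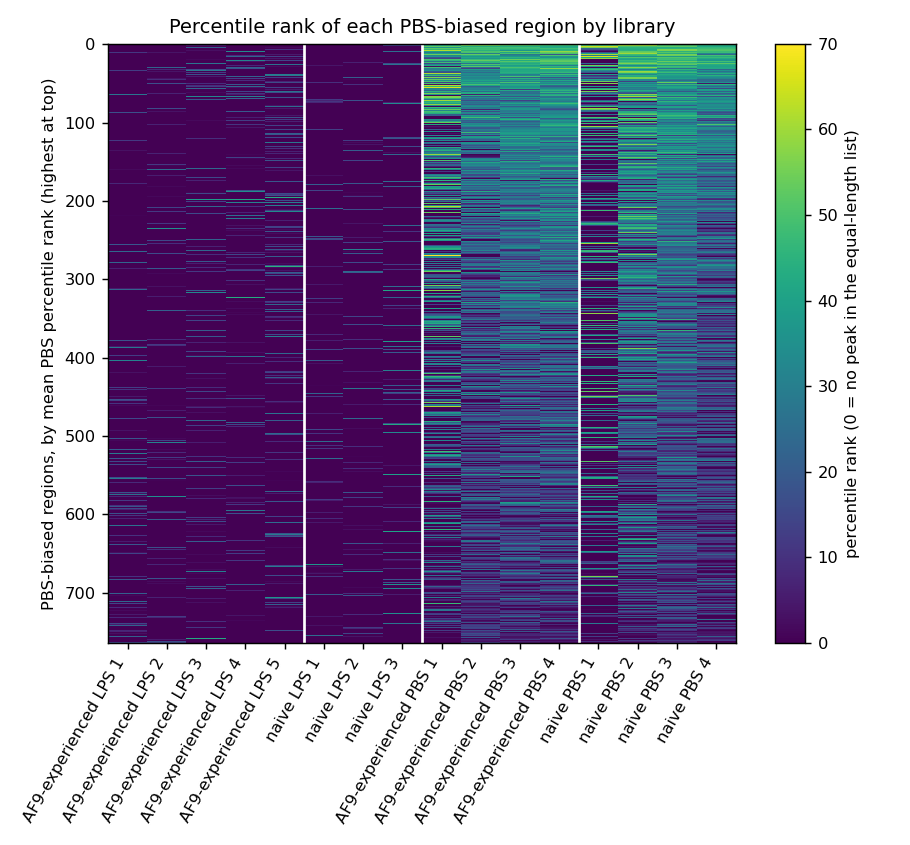
Percentile rank of each of the 764 PBS-biased regions (rows, ordered by mean PBS rank) in the 16 libraries (columns, LPS to the left of PBS); dark means no peak in the shortened list. Median mean ranks were 1.2 in LPS and 16.9 in PBS libraries, and AF9-experienced PBS 1 and naive PBS 1 show many dark rows beside bright ones.

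A set of 29 regions had the full pattern, a peak in all 8 PBS lists and in no LPS list. The highest mean PBS rank among them was at the gene end of Clcf1, a cytokine of the IL-6 family (chr19:4221274-4222908). Its rank was 0 in each LPS library, against 42.4, 43.3, 51.0 and 54.0 in AF9-experienced PBS and 33.7, 55.1, 56.4 and 58.2 in naive PBS libraries. The groups did not overlap, and naive PBS 1 was the lowest PBS library. A region 5.0 kb from Zyx, which encodes a focal adhesion protein (chr6:42343279-42344523), was at 0 in each LPS library, against 52.4, 47.6, 47.5 and 48.8 in AF9-experienced PBS and 22.1, 43.9, 45.2 and 47.7 in naive PBS libraries. Here too naive PBS 1 stood below the other 7 PBS libraries, which lay between 43.9 and 52.4. At the gene end of Il6ra, the IL-6 receptor (chr3:89869558-89870163), ranks were 0 in each LPS library, against 58.4, 21.1, 28.9 and 39.3 in AF9-experienced PBS and 11.0, 18.3, 34 and 34.8 in naive PBS libraries. PBS libraries spread far more at Il6ra than at Zyx.

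The next regions of the 10 highest with this pattern also stood at 0 in each LPS library. Their mean PBS ranks were 42.8 ± 10.2 inside Tcof1 (nucleolar ribosomal RNA factor; SD, n = 8 here and for the next), 41.3 ± 12.4 at an intergenic region of chromosome 15, 41.1 ± 10.9 at Gsg1, and 38.1 ± 5.3 at Nap1l4, a nucleosome assembly protein. They were 30.8 ± 13.8 inside Nfia, a nuclear factor I transcription factor, 30.3 ± 16.7 inside Stim1, the calcium sensor of the endoplasmic reticulum, and 30.3 ± 6.62 inside Sctr, the secretin receptor. In the full lists a peak was present at Clcf1, Zyx, Nap1l4, Nfia and Sctr in all 8 LPS libraries, at Tcof1, Gsg1, Il6ra and Stim1 in 7, and at the intergenic region in 5.

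**Figure D3:**
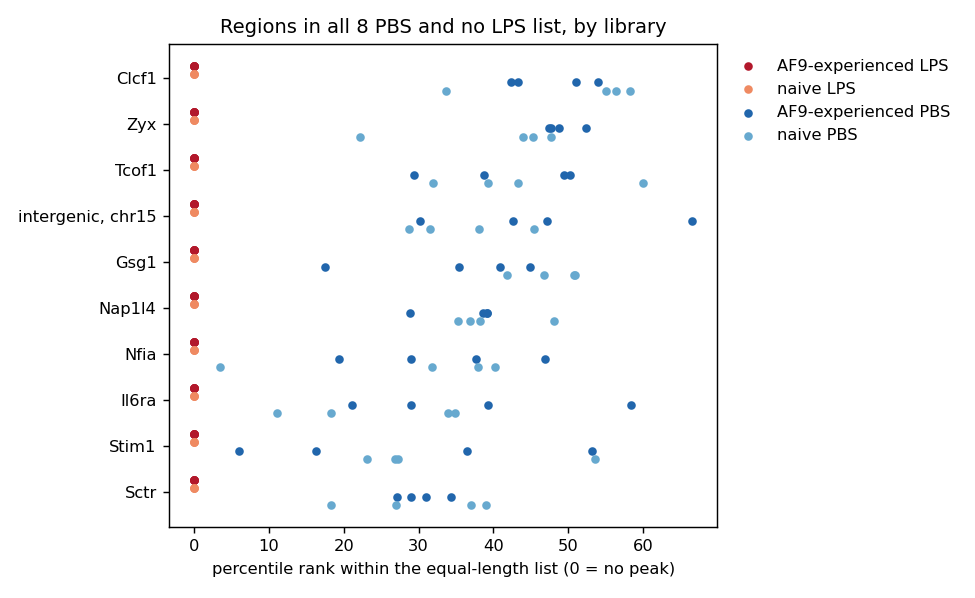
Percentile rank in each library (points, coloured by group, with LPS groups above PBS groups) of the 10 regions with the highest mean PBS rank among those in all 8 PBS lists and no LPS list. Each LPS point lies at 0, and PBS points run from 3.49 at Nfia to 66.6 at the intergenic region.

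Regions at gene ends were few. Only 92 of 764 PBS-biased regions (12%) lay within 1 kb of either end of a protein-coding gene model, against 66.7% of the regions in all 16 lists and 42.5% of all tested regions. Beside Clcf1, Gsg1 and Nap1l4, the highest PBS ranks at gene ends were at Cabp1, a neuronal calcium-binding protein (0 to 4.51 in LPS libraries, median 0, against 14.4 to 57.5, median 42.4, in PBS libraries), and at Poll, DNA polymerase lambda (0 to 2.4 in LPS libraries, median 0, against 1.93 to 51.5, median 41.9, in PBS libraries). LPS and PBS libraries overlapped at Poll through AF9-experienced PBS 1 alone. The region at the end of Gtf2i, a general transcription factor, had ranks of 17.1 and 29.6 in AF9-experienced LPS 3 and 5 and 0 in the other 6 LPS libraries, against 28.8 to 47.8 (median 33.2) in PBS libraries. At Zfp467, a zinc finger gene, LPS libraries ranged from 0 to 9.01 (median 0) and PBS libraries from 24.2 to 42.6 (median 33.6). At Rd3, a photoreceptor gene, they ranged from 0 to 25.7 (median 0) after LPS and from 0 to 47.5 (median 32.6) after PBS.

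The larger share lay away from gene ends. Inside gene models were 47.3%, within 50 kb 30.5% and farther out 10.2%, against 20.2%, 10.3% and 2.8% of the regions in all 16 lists. Regions with the opposite pattern, a peak in at least 6 LPS and at most 2 PBS lists, numbered 954 and are called LPS-biased. Their shares were near those of the PBS-biased regions: 9.01% at gene ends, 52.5% inside, 29.0% within 50 kb and 9.43% beyond. The median distance to a RefSeq start site was 14.9 kb for PBS-biased and 16.3 kb for LPS-biased regions. The median width was 843 and 695 bp, against 1137 bp for regions in all 16 lists. Single peaks of the shortened lists also differed in width, with a median over libraries of 821.5 bp in PBS and 673 bp in LPS lists. The part of peak width and of the number of merged peaks in the region widths was not tested. PBS-biased regions were scattered: 34 of them (4.45%) had another within 20 kb. They were found on each of the 19 autosomes, as 2.39% of the tested regions on chromosome 2 up to 4.62% on chromosome 14.

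The 686 regions within 50 kb of a gene were linked to 651 genes, of 12344 genes with a tested region. Camta1, a calmodulin-binding transcription activator, had 3, all inside the gene, with mean ranks of 0.212, 0.311 and 0 after LPS, against 8.17, 15.6 and 11.0 after PBS. Several genes had 2. Regions 39.2 and 30.5 kb from Rplp1, a ribosomal stalk protein gene, had mean ranks of 0.481 and 0 after LPS, against 53.4 and 23.8 after PBS, the first being the highest PBS mean of all 764. Those inside Endou, an endoribonuclease gene, were at 2.38 and 0 after LPS, against 50.05 and 10.8 after PBS. Those inside Nfia were at 7.27 and 0 after LPS, against 44.4 and 30.8 after PBS. At Creb5, a transcription factor that binds cAMP response elements, they were at 2.62 and 0.616 after LPS, against 23.9 and 42.5 after PBS.

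Gene lists of 22 kinds were read next. They were written with earlier results of these data in view, and those on Wnt, IL-6, lymphocyte signalling and adhesion hold genes already known to move, so their counts are no independent evidence. Of the tested regions linked to any gene, 3.1% were PBS-biased. By list it was 10.6% for TCF/LEF and Wnt, 7.89% for Notch, 6.67% for IL-6, 5.77% for lymphoid and 4.69% for stem cell genes. For E protein, MLL-AF9, adhesion, megakaryocyte-erythroid, T cell signalling, neutrophil and AP-1 genes it was 4.55%, 3.57%, 5.13%, 3.7%, 2.27%, 12.5% (1 of 8 regions) and 1.3%. The counts of genes below do not allow for several regions per gene. Of the genes with a tested region, 651 of 12344 had a PBS-biased region. In the TCF/LEF and Wnt list 5 of 16 did: Lef1, Tcf7l1 and Tcf7l2, transcription factors of the pathway, Fzd4, a Wnt receptor, and Ctnnb1, its effector beta-catenin. The region inside Lef1 (chr3:131157227-131158035) was at 0 in each LPS library, against 7.35, 27.4, 30.5 and 45.2 in AF9-experienced PBS and 0, 43.6, 30.5 and 14.6 in naive PBS libraries. LPS and PBS libraries met at 0 through naive PBS 1. The region inside Tcf7l2 was at 0 in each LPS library and at 0 to 41.9 (median 22.0) in PBS libraries, and that at the end of Ctnnb1 at 0 in each LPS library and at 0 to 37.4 (median 21.5) in PBS libraries. The Fzd4 region was at 0 to 18.5 (median 0) after LPS and 0 to 33.0 (median 25.2) after PBS. Over the 5 regions of the list the median LPS minus PBS difference was -19.6, against -15.2 over all PBS-biased regions linked to a gene.

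In the IL-6 family and STAT list 4 of 19 genes had a PBS-biased region: Clcf1 and Il6ra, Lif, a cytokine that signals through the same receptor subunit, and Socs3, a feedback inhibitor. The Socs3 region, 5.7 kb from the gene, was at 0 in each LPS library, against 0, 25.8, 28.0 and 25.4 in AF9-experienced PBS and 11.8, 35.0, 33.6 and 36.8 in naive PBS libraries. AF9-experienced PBS 1 was the 1 PBS library without a peak there. The Lif region, 16.5 kb away, was at 0 to 24.8 (median 0) after LPS and 0 to 31.7 (median 8.06) after PBS, and both ranges overlapped widely.

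Lymphoid and Notch genes had 3 each. Among 14 lymphoid priming genes these were Lef1, Bcl11a, a factor needed for B cell development, and Ets1. The Bcl11a region, 26.4 kb from the gene, was at 0.429 and 5.19 in AF9-experienced LPS 3 and 5 and 0 in the 6 others, against 11.8 to 49.9 (median 31.2) in PBS libraries, with no overlap. The region inside Ets1 was at 6.76 and 9.59 in AF9-experienced LPS 2 and 4 and 0 in the 6 others, against 16.7 to 55.7 (median 30.3) in PBS libraries, again with no overlap. Among 13 Notch pathway genes they were Notch2, a receptor (mean 0 after LPS and 14.2 after PBS), Jag2, a ligand (2.1 and 24.1), and Nrarp, a feedback inhibitor (0.354 and 26.4). Of 7 E protein and Id genes, Tcf4, an E protein, had 1, at 2.39 after LPS and 13.5 after PBS.

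Among 19 stem cell identity genes 3 had a PBS-biased region. The one 5.8 kb from Fgd5, a marker of stem cells, was at 3.76 in naive LPS 2 and at 0 in the 7 others, against 0, 25.4, 33.5 and 33.4 in AF9-experienced PBS and 0, 55.9, 36.0 and 31.3 in naive PBS libraries. Both short PBS lists lacked it. Regions inside Mecom and Prdm16, related zinc finger regulators of stem cells, had mean ranks of 2.2 and 0 after LPS, against 18.5 and 8.95 after PBS. Mecom also stands in the MLL-AF9 list, where 2 of 16 genes had one, the other being Mef2c (4.94 after LPS and 14.4 after PBS). The remaining lists had few. Skap1, an adaptor, had 1 among 13 T cell signalling genes (2.5 after LPS and 13.3 after PBS), and Zyx and the junction protein gene Jam3 had 1 each among 15 adhesion genes (0 and 3.53 after LPS, against 44.4 and 13.1 after PBS). Zfpm1, a partner of GATA factors (5.85 after LPS and 40.5 after PBS), Cd177, a neutrophil surface protein gene (3.5 and 23.7), and Fos, an AP-1 subunit (0 and 10.5), were the only ones in the megakaryocyte-erythroid, neutrophil and AP-1 lists.

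The growth factor receptor, granulocyte-monocyte, monocyte, mature lymphocyte, mast cell, endothelial, interferon, NF-kB, cell cycle and housekeeping lists had no PBS-biased region. LPS-biased regions lay at 791 of the 12344 genes with a tested region. They lay at 6 of 26 genes in the NF-kB and Toll-like receptor list, 5 of 13 in the T cell signalling list, 3 of 19 in the stem cell list and 3 of 18 in the cell cycle list. In the lists named above they lay at 2 of 16 TCF/LEF and Wnt genes, 2 of 19 IL-6 family genes, 1 of 14 lymphoid, 2 of 13 Notch and 2 of 7 E protein and Id genes, and the other lists had 0 to 2. For other cell types, of 10 monocyte and macrophage genes 4 to 6 had a gene-end peak in LPS lists and 3 to 4 in PBS lists, and of 19 mature lymphocyte genes 1 to 3 in LPS lists and 2 to 3 in PBS lists. Their part in the result was not tested. Gene ends of Kit, Cd34, Flt3, Meis1 and Mecom were open in 16 of 16 lists, while no tested region lay at the end of Ly6a, which encodes Sca1.

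Promoter windows under PBS-biased regions differed in composition from both other kinds. Their median GC content was 57.8%, against 52.3% under LPS-biased regions (63 windows) and 62.7% under regions in all 16 lists (9236 windows). The median CpG count in 300 bases was 8.5, against 5 and 23. The observed over expected CpG ratio reached 0.6 in 31.0% of them, against 12.7% and 82.7%, and 35.8% of all 32851 windows in the table. Counted in the 250 bases before the start alone, the 3 printed promoters ran from 2 CpG at Robo4 to 30 at Vegfc. Others lay outside these ends, with 1 at Tle6 and 34 at Adamts2.

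Short motifs were counted as letters on both strands, and a match is no evidence of binding. The E-box CAGCTG, which E proteins and other basic helix-loop-helix factors bind, was in 29.8% of the windows under PBS-biased regions, including the Robo4 window. It was in 19.0% under LPS-biased regions, 13.7% under regions in all 16 lists and 16.3% of the whole table. The AP-1 letters TGANTCA were in 3.57% of the windows, against 20.6% under LPS-biased regions, 3.9% under regions in all 16 lists and 7.81% of the table. RUNX letters (TGTGGT) were in 15.5%, against 33.3%, 11.7% and 16.8%, and GATA letters (AGATAA) in 4.76%, against 19.0%, 4.81% and 11.2%, in the same order. ETS letters (CCGGAAG) were in 3.57%, against 12.7%, 21.3% and 8.86%. KLF/SP letters (GGGCGG), which contain a CpG, were in 45.2%, against 25.4%, 70.1% and 35.7%. NF-kB letters (GGGANTTTC) were in none of the 84 windows, against 4.76%, 0.942% and 1.11%, and TCF/LEF letters (CTTTGAT) in 1.19%, against 3.17%, 2.27% and 3.73%. IRF letters (GAAANNGAA) were in 11.9%, against 6.35%, 6.01% and 8.56%, and CTCF letters (AGGNGGC) in 31.0%, against 15.9%, 42.2% and 29.4%. C/EBP letters (TTGCNNAA) were in 10.7%, against 19.0%, 7.51% and 10.8%, HOX letters (TTTATNG) in 9.52%, against 4.76%, 5.51% and 10.9%, and MEIS letters (TGACAG) in 15.5%, against 19.0%, 16.3% and 19.2%. These shares rest on 84 windows of 71 regions, and 25 windows hold the E-box letters. They say nothing of the other regions, and GC content moved with the sets.

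**Figure D4:**
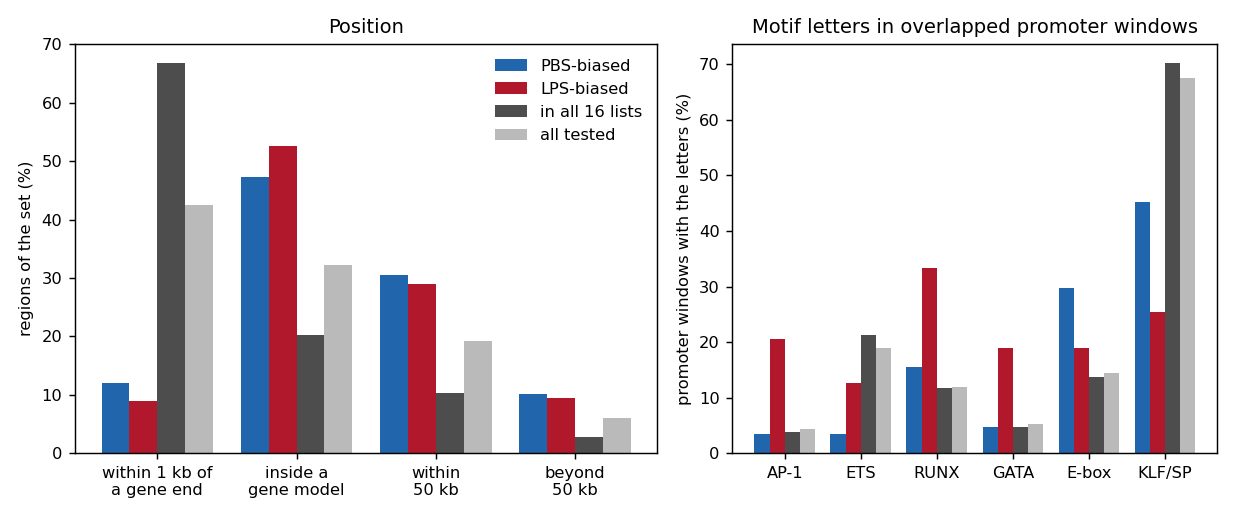
Left, percent of PBS-biased, LPS-biased, always-present and all tested regions by position relative to protein-coding gene models. Right, percent of overlapped 300-base promoter windows holding each motif's letters; PBS-biased windows reach 29.8% for the E-box and 3.57% for AP-1, against 19.0% and 20.6% in LPS-biased windows.

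Past exposure to MLL-AF9 did not enter the rule by name, but the comparison after PBS reads the same PBS lists. With a peak required in at least 6 of 8 of them, at most 2 PBS libraries could be at 0, which bounds the difference, and the shares of regions are a description. No region was called between AF9-experienced and naive mice after PBS at an adjusted p under 0.05 (limma over all 23554 tested regions), where the share of all tested regions called was 0%. At an unadjusted p under 0.05 there were 63 (8.25%), of which 39 were higher and 24 lower in AF9-experienced mice, against 3.2% of all tested regions. The smallest adjusted p among the PBS-biased regions was 1. The median difference was 0.984 percentile points, with a median SE of 7.05. AF9-experienced PBS 1 held 490 and naive PBS 1 held 306 of the regions, and the part of this gap in the unadjusted counts was not tested. With library weights 1 PBS-biased region was called, and the share of all tested regions called with these weights is not given here.

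The smallest unadjusted p for a higher rank was at a region 13.0 kb from Vegfa, a growth factor of blood vessels (chr17:46045402-46046254). It had ranks of 39.3, 23.6, 14.1 and 25.6 in AF9-experienced PBS and 0, 2.15, 10.8 and 0 in naive PBS libraries, without overlap. The difference was 22.4 (SE 5.21; limma unadjusted p = 0.00029, adjusted p = 1). A region inside Maml3, a Notch coactivator gene, had ranks of 27.8, 15.2, 38.9 and 18.1 in AF9-experienced PBS and 0, 0, 13.9 and 4.49 in naive PBS libraries (difference 20.4, SE 5.39), and one inside Trim9, a ubiquitin ligase gene, differed by 23.9 (SE 6.66). The smallest p for a lower rank was at a region 16.5 kb from Vat1l, with ranks of 0, 0, 0.152 and 3.41 in AF9-experienced PBS and 37.5, 18.4, 23.0 and 3.03 in naive PBS libraries (difference -19.6, SE 5.23), which overlapped. It was followed by regions 10.7 kb from Itm2c (-21.4, SE 5.99) and, on chromosome 13, 262.4 kb from the nearest gene (-13.1, SE 4.04). None of these passed the adjustment.

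After LPS no PBS-biased region was called, against 0.0127% of all tested regions, and none had an unadjusted p under 0.05, against 5.39%. With at most 2 LPS lists holding a peak, the rule itself leaves little room for a difference there, and these counts are given as a description. The widest differences among those with the smallest p were at a region inside Tesc (16.6, SE 9.8), where AF9-experienced LPS 3 and 4 stood at 45.2 and 37.8 and the other 6 LPS libraries at 0, and inside Tex2 (-11.8, SE 6.75), where naive LPS 1 and 3 stood at 22.5 and 12.8 and the others at 0. Regions inside Cbx7 (13.7) and, on chromosome 1, 232.2 kb from a gene (12.5) were higher in the same 2 libraries as Tesc, and those at Pkp2 (-11.5) and Tnrc18 (-8.28) rested on 1 naive LPS library each.

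The difference of the LPS effect between backgrounds asks whether AF9 experience altered that effect. At the PBS-biased regions the rule holds LPS ranks near 0, so this difference is close to the comparison after PBS with its sign turned, and its counts are given as a description. It was called at no PBS-biased region, against 0% of all tested regions. At an unadjusted p under 0.05 there were 14 (1.83%), 4 higher and 10 lower, against 2.94% of all tested regions. The smallest p were at Itm2c, Vat1l and the chromosome 13 region for a positive difference (23.5, 19.6 and 13.1) and at Vegfa, Creb5 and Maml3 for a negative one (-21.8, -31.1 and -19.9). The median SE of this difference was 10.1 percentile points, against a median mean PBS rank of 16.9.

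The pattern could also be tested in libraries that had not chosen it. In a choice from naive libraries alone, 825 regions had a peak in at least 3 of 4 PBS lists and in none of 3 LPS lists. Read in the AF9-experienced libraries, their median rank was 1.32 after LPS and 15.0 after PBS, and their median LPS minus PBS difference was -11.8, with 89.3% below 0. For all regions that 3 or more of the 4 naive PBS lists held, these values were -1.16 and 57.0%. Of the 825, 129 (15.6%) were called lower after LPS in the AF9-experienced libraries by limma (adjusted p under 0.05 over all tested regions) and none higher. The share called lower was 1.66% of all tested regions and 2.18% of those held by 3 or more of the 4 naive PBS lists. Neither set was matched to the 825 on rank, and the 825 had a median PBS rank of 16.1 in the naive libraries. The part of this low rank in the shares and differences was not tested. In 124 of the 129 the LPS and PBS libraries did not overlap. A call favours such separation and it was not counted over all tested regions, so this is a description. Of these 129, 117 are PBS-biased regions by the rule over all libraries. That rule reads the same naive and AF9-experienced lists as the choice and the call. Regions chosen and called lower thus tend to meet it by construction, and the overlap is given as a description only.

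In the opposite direction, 1110 regions chosen in AF9-experienced libraries alone had at least 3 of 4 PBS lists and at most 1 of 5 LPS lists. Read in the naive libraries, their median rank was 0 after LPS and 11.7 after PBS, the median difference was -9.36, and 86.4% lay below 0, against -0.475 and 53.1% for all regions in at least 3 of 4 AF9-experienced PBS lists. Only 8 (0.721%) were called lower, against 0.208% of all tested regions and 0.276% of those in at least 3 of 4 AF9-experienced PBS lists. These sets were not matched on rank either, and the 1110 had a median PBS rank of 14.3 in the AF9-experienced libraries. An unadjusted p under 0.05 was found at 212, without a count over all tested regions at that threshold. In 1 fit of all 16 libraries the share called lower was 5.32%, again without a share of all tested regions in that fit. Neither value can thus be read as above the background.

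**Figure D5:**
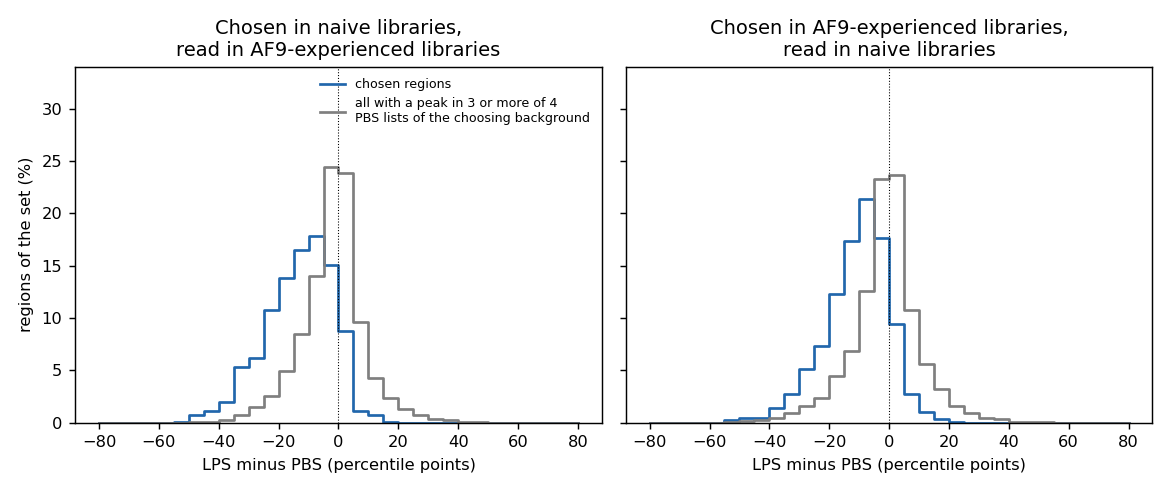
Distribution, in bins of 5 percentile points, of the LPS minus PBS difference of regions chosen in 1 background (blue) and of all regions that 3 or more of its 4 PBS lists held (grey), read in the other background's libraries. The blue medians lie at -11.8 (left) and -9.36 (right), against -1.16 and -0.475 for grey.

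Both readings depended on the lists used and on single libraries. With full lists, or with presence at a -log10 q threshold in place of rank, no region was called in either reading. The share read in AF9-experienced libraries was 9.33%, 8.97%, 9.21% and 9.45% without AF9-experienced LPS 1, 2, 3 and 4, and 9.09% and 8.36% without AF9-experienced PBS 3 and 4. It was 30.9% without the short list AF9-experienced PBS 1, with 255 of 825 called. Without naive PBS 3 it was 24.9%, but of fewer chosen regions: 59 of 237 were called, against 129 of 825 with all libraries. The share read in naive libraries was 0% without naive LPS 1, 2 or 3 or naive PBS 2, 3 or 4. It was 4.23% without the short list naive PBS 1. Without AF9-experienced PBS 2, 3 and 4 it was 1.6%, 1.81% and 1.79%. There the number called stayed at 8, while 500, 443 and 446 regions were chosen in place of 1110. Ranked by fold enrichment the shares were 2.39% in AF9-experienced and 0% in naive libraries. The share of all tested regions called under each of these settings is not given here. The shares of this paragraph can thus not be read against a background. The part of the list differences in fold and -log10 p given above in these shares was not tested.

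At the edge of the rule there were 140 regions with exactly 2 LPS and 6 PBS lists, 135 with 2 LPS and 5 PBS lists, and 167 with 3 LPS and 6 PBS lists. Just inside, the highest mean PBS ranks were at an intergenic region of chromosome 12 (2.9 after LPS and 29.4 after PBS), inside Rps6ka2 (1.7 and 28.6) and inside Ttc28 (2.11 and 23.9). Just outside with 5 PBS lists were regions inside BC051142 (2.71 and 17.8), 39.6 kb from Cryaa (3.78 and 17.7) and inside Pnpla3 (4.89 and 16). Just outside with 3 LPS lists were regions inside Pink1 (5.37 and 31.0), 8.7 kb from Sub1 (11.1 and 28.1) and inside Lrch1 (8.03 and 26.9).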

How the data were processed

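One peak list per biological replicate was used, and list names gave its group and number. The submitters' processing notes name the aligner BWA, the peak caller MACS3, Picard, Trim Galore and FastQC, and build GRCm38, without versions; filters are not given in the sources used here. The deposited fold enrichment is a ratio of a summit to its local background, and the deposited -log10 p and -log10 q are the authors' values of the peak. None is scaled between libraries, so peaks were ranked by them only within a list. Where fold or -log10 p is set side by side between libraries above, the values are unscaled and are a description. Read depth is unknown, so no interval was given, and -log10 p rises with depth.

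From these lists, autosomal peaks were ranked by -log10 p (ties by fold), shortened to 1 common length and merged where they overlapped, with Python 3.11.15. Ranks are relative, so a region can move when others do. Regions that 3 or more lists shared were fitted with limma 3.58.1 (R 4.3.3; 1 mean per group, trend and robust options), with p-values adjusted by Benjamini-Hochberg within a contrast and called under 0.05. The fits were tested on simulated ranks without a floor at 0, moved at regions of middle mean rank in the AF9 contrast after PBS alone. That test does not cover regions with many ranks at 0, as most PBS-biased regions have. Genes are the nearest of 20665 autosomal RefSeq protein-coding models (GRCm38.p6) within 50 kb; 335 of 341 listed symbols matched, and 1 gene left out of the lists is not reported here. The members and gene lists were chosen with earlier results of these data known. Named were up to 10 regions in all PBS and no LPS lists, 8 at gene ends, 4 per gene list, 5 genes with most regions, 3 per direction with the smallest p in each AF9 contrast, and 3 on each side of the rule; the printed promoters were added. Alternatives were other rankings, list lengths, peak thresholds, overlaps and widths, models, and leaving out libraries.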

Additional observations from a re-analysis of the deposited data

Results flagged for a closer look

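A single library stood far from the rest of its group in several measures; chance gives about 1 such case in 20 groups. AF9-experienced PBS 1 had 25685 peaks, 563 PBS-biased regions with a peak in the full list and a median fold of 4.42 at them. Naive PBS 1 held 306 of the regions, in the shortened and in the full list. Up to 3 peaks on chromosome Y, outside the autosomal ranks used here, were listed in an LPS library, above the highest PBS library with 1.

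Ranks of named regions stood apart in the same way. In AF9-experienced LPS 5 these were Cabp1 (4.51), Poll (2.4), Rd3 (25.7), Mecom (9.69), Bcl11a (5.19), Fzd4 (18.5), Jag2 (16.8), Lif (24.8), the Rplp1 region at 39.2 kb (3.85), the Creb5 region at 7.3 kb (4.93), Itm2c (10.8) and Rps6ka2 (13.6). In AF9-experienced LPS 4 they were Zfp467 (9.01), Cd177 (24.5) and Skap1 (12.6), in AF9-experienced LPS 3 Endou (4.76), Vegfa (2.96), Trim9 (10.7) and Ttc28 (13.6), and in AF9-experienced LPS 1 Mef2c (15.4) and Camta1 (1.7). In most of these groups the other libraries were at 0, so that any single peak stands apart by construction.

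In PBS libraries, AF9-experienced PBS 1 stood apart at Notch2 (0), Socs3 (0), the chromosome 13 region (10.1) and Tex2 (28.9), AF9-experienced PBS 3 at Nap1l4 (28.9) and AF9-experienced PBS 4 at Vat1l (3.41). Naive PBS 1 stood apart at Clcf1 (33.7), Zyx (22.1), Stim1 (53.5), Socs3 (11.8), Camta1 (0) and Rps6ka2 (0), and naive PBS 2 at Prdm16 (28.1).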

How the results depend on the processing

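The number of regions that met the rule was 1470 ranked by fold enrichment, 261 with lists of 50% of the length, 4361 with full lists, 6736 counting peaks of -log10 q 5 or more as present, and 2698 without the 3 shortest lists at 59609 peaks per list. It was 220 with at least 7 PBS and at most 1 LPS lists, 29 with 8 and 0, and 1667 with 5 and 3. Leaving out 1 library, with the numbers of lists in the rule unchanged, gave 393 to 940. The direction is largely built in, as the rule is easier to meet with an LPS list fewer and harder with a PBS list fewer. Leaving out an LPS list gave 878 to 940 regions with all 764 kept, and leaving out a PBS list gave 393 to 669. The cause of the other changes was not tested. Members called for AF9 experience after PBS numbered 0 under all settings except library weights (1). After LPS and in the interaction the count was 0 under all settings run. The percents that follow stand without the share of all tested regions called under the same setting, which is not given here. The percent of regions chosen in naive libraries and called lower after LPS in AF9-experienced libraries was 2.39 by fold enrichment, 7.38 with the 50% lists, 0 with full lists and as presence at that q, 30.9 without the 3 shortest lists, 25 there at 59609 peaks, and 8.36 to 30.9 without 1 library. The percent read in naive libraries was 0 by fold enrichment, with the 50% lists, with full lists, as presence at that q and without the 3 shortest lists at 59609 peaks, 3.53 without these lists at the length used, 5.32 in 1 fit of all 16 libraries, and 0 to 4.23 without 1 library. With the replicate number as a block the percents were 1.21 and 0, and no AF9 contrast or interaction call was made; correlations of same-numbered libraries' deviations ran from -0.215 to 0.231 and most were under 0.1, so the numbers were not taken as pairs.

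For 61 named regions the LPS minus PBS mean rank was recomputed under each setting that gives a rank, and 1351 of 1361 values lay below 0. Ranked by fold enrichment, it was 1.68 at Jam3, 4.96 at Cbx7 and 0.38 at Tex2. In full lists it was 3.37 at Mecom, 2.43 at Tcf4, 2.62 at Mef2c, 2.13 at Skap1, 0.84 at the chromosome 1 region, 0.39 at Pkp2 and 1.4 at Ttc28. The cause was not tested.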
